A study of Mus musculus with 6 samples.

Results

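This report describes 9 mouse genes: Pink1, Park7, Bnip3l, Fundc1, Fkbp8, Phb2, Optn, Sqstm1 and Tax1bp1. Apart from Park7, which is linked to mitochondrial quality control, their products mark mitochondria for removal by autophagy or tether them to the forming autophagosome. The 9 genes were picked by symbol from 22984 genes in a table of FPKM (fragments per kilobase of gene, scaled to the depth of the library). All 9 were present and passed the filter of a mean of at least 1 FPKM. The libraries were made from mouse bone marrow mesenchymal stem cells, stromal cells that can give rise to bone, fat and cartilage. Wild type cells, labelled Grx2+/+, gave 3 libraries and knockout cells, labelled Grx2-/-, gave 3, and the design text names the cells O-BMSCs without expanding the prefix. Grx2 is glutaredoxin 2, a mitochondrial thiol oxidoreductase encoded by Glrx2. The labels give neither strain, age, treatment nor passage. Nothing in them ties a replicate to an animal or culture of its own, so p-values here cover the spread among the 6 libraries alone, which may be technical.

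Mitophagy has a ubiquitin-dependent arm and a receptor arm. On mitochondria that lose membrane potential, the kinase PINK1 phosphorylates ubiquitin and so promotes its build-up on the outer membrane, and the adaptors p62 (Sqstm1), optineurin (Optn) and TAX1BP1 bind both the ubiquitin chains and ATG8-family proteins on the autophagosome membrane. In the receptor arm, proteins that sit in the mitochondrial membranes, among them NIX (Bnip3l), FUNDC1, FKBP8 and prohibitin 2 (Phb2), bind the ATG8 proteins directly through a short LC3-interacting motif. Transcript levels do not measure mitophagy itself, which is also set by protein import, phosphorylation and turnover.

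Glrx2 was at 3.57, 3.74 and 3.54 FPKM in the wild type libraries and at 0.0046, 0 and 0 in the knockout libraries. Depth, worked back from the FPKM values, was 40797879 to 41794919 reads per library. By the same working, each of the 9 genes had at least 968 reads in every library. Neutrophil markers summed to 882 to 2561 FPKM in wild type and 1.81 to 2.12 in knockout libraries (7 of 7 tested lower), with Elane at 0 in 2 knockout libraries and Retnlg, not tested, at 0 in all 3. Macrophage markers summed to 1390 to 1513 FPKM in wild type and 2306 to 3116 in knockout (7 of 8 higher), and endothelial markers to 16.5 to 19.9 and 0.938 to 1.09 (4 of 4 tested lower). Of the untested endothelial markers, Tie1 was at 0 in all knockout libraries and Tek was at 0.252 to 0.284 FPKM in wild type and 0.555 to 0.647 in knockout. Skeletal muscle markers were highest in wild type replicate 2 (31 FPKM in sum, against 2.27 to 12.4 elsewhere), and erythroid markers summed to at most 0.446 FPKM. Mesenchymal markers summed to 6828 to 7878 FPKM in wild type and 4099 to 4775 in knockout, with 3 of 10 higher and 6 lower. Most of that sum was Col1a1 (means of 3757 and 2164 FPKM) and Col1a2 (3427 and 1850). Thy1 (11.9 in wild type and 167 in knockout) and Pdgfra (7.7 and 22) were higher. Nt5e (10.8 and 2.1) and Lepr (3.83 and 0.0351) were lower. The part of other cell types in the values below was not tested, and in these bulk libraries fewer cells of a type and less RNA per cell cannot be told apart.

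The promoters of the 2 genes that rose under every scaling tried, Pink1 and Fkbp8, are shown. As described below, 11 of 12 hypoxia-inducible (HIF) targets fell in these libraries and 1 rose. Of 8 oxidative stress (NRF2) targets, 7 rose and 1 fell. Whether either factor acts on the promoters shown was not tested. RefSeq's promoter table (build GRCm38.p6, another build than the GRCm39 of the submitters' notes) held 8 of the 9 genes and not Bnip3l. The 250 bases before the start of each were searched on both strands for the core of the hypoxia response element (HRE; ACGTG or GCGTG), the antioxidant response element (ARE; TGACNNNGC) and the lysosomal gene element CLEAR, whose letters contain an HRE core. Capitals mark HRE cores. The Pink1 stretch is chr4:138326297-138326546 on the minus strand, and the Fkbp8 stretch is chr8:70527493-70527742 on the plus strand.
Pink1: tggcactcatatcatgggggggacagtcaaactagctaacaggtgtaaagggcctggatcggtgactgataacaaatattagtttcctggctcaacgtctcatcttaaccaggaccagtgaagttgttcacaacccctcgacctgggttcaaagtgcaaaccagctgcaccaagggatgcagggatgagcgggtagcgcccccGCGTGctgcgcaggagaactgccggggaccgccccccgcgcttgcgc
Fkbp8: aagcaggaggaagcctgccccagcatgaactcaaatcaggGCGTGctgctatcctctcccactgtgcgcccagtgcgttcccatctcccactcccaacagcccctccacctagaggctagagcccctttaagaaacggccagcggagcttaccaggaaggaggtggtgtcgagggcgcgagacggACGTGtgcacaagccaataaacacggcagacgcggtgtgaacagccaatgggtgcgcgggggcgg
Pink1 had 1 HRE core, 47 to 43 bases before its start, and Fkbp8 had 2, at 210 to 206 and 65 to 61 bases before. Phb2 (1), Optn (2) and Tax1bp1 (in both of its listed promoters) also held the core, and Park7, Fundc1 and Sqstm1 did not within this window. The core is common: 38.6% of all 32851 promoters of this length held it, and 6 of the 9 listed for these 8 genes did. The difference in share was not tested. An ARE was found in 1 of the 9 promoters listed for these 8 genes, the second of Tax1bp1, against 10.2% of all promoters, and CLEAR in 0, against 0.24%. A match describes letters and not a bound site.

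Of the 9 genes, 5 were higher and 1 was lower in knockout libraries, and 3 did not pass (limma on log2(FPKM + 1), two-sided, Benjamini-Hochberg adjusted p under 0.05 over all tested genes). Pink1 moved most, by 0.69 on the log2 scale, followed by Bnip3l, the one that fell, by 0.31. Fkbp8, Phb2, Park7 and Sqstm1 were 9.6% to 16.3% higher, and Fundc1, Optn and Tax1bp1 did not pass. Among 11083 tested genes 67.4% passed in either direction, 42.7% as higher and 24.6% as lower, so passing the test does not set these 9 genes apart. The groups did not overlap for 6 of the 9, where 73.1% of tested genes did not overlap, 45.7% with knockout higher and 27.4% with knockout lower. The median absolute log2 fold change was 0.139 for the 9 genes and 0.243 for all tested genes, and 1 of 9 passed with a change of at least 1.5-fold, against 21.0% of all.

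The call of the small rises depends on scaling. FPKM does not correct for composition, and the median log2 fold change of all tested genes was 0.085. Scaling by median of ratios moved that median to -0.0019, and quantile normalization moved it to -0.026. Under either one, 2 of the 9 genes were higher (Pink1 and Fkbp8) and 2 lower (Bnip3l and Tax1bp1), in place of 5 and 1. The counts over all tested genes went from 4737 higher and 2728 lower to 3699 and 3670 by median of ratios, and to 3413 and 3945 by quantile normalization.

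**Figure D1:**
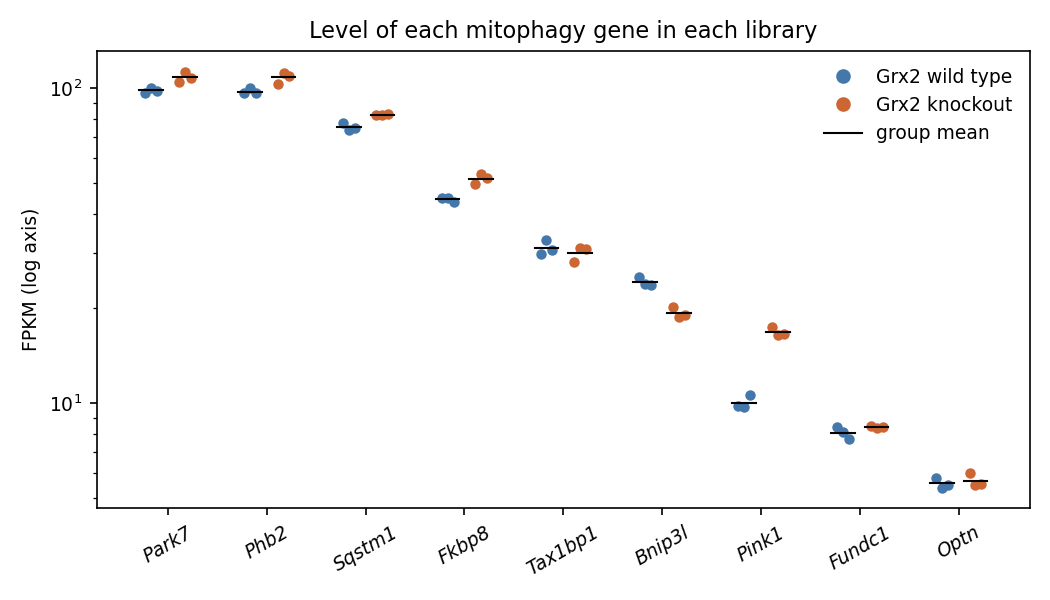
FPKM (log axis) of the 9 genes in each library, ordered by wild type mean; points are libraries, 3 per genotype, and bars are group means. The groups are apart for 6 genes and overlap for Tax1bp1, Fundc1 and Optn, and the order of the genes is the same in both genotypes.

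The order of levels, which FPKM allows to be compared because it is per length, was the same in both genotypes. Park7 (98.5 ± 1.96 FPKM in wild type, SD, n = 3) and Phb2 (97.6 ± 2.12) were highest, and their libraries overlapped in each genotype. Sqstm1, Fkbp8, Tax1bp1, Bnip3l, Pink1, Fundc1 and Optn followed, and no other neighbours in that order overlapped within a genotype. Pink1 made up 2.54% of the summed FPKM of the 9 genes in wild type and 3.9% in knockout, and Bnip3l 6.14% and 4.49%. In wild type the ranges of Bnip3l and Pink1 were far apart, 23.7 to 25.1 and 9.74 to 10.6 FPKM, and in knockout they were 18.8 to 20.3 and 16.4 to 17.5 FPKM.

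Pink1, the kinase that starts the ubiquitin arm, was at 9.77, 9.74 and 10.6 FPKM in the wild type libraries (replicates 1, 2 and 3, the order used throughout) and at 17.5, 16.4 and 16.5 FPKM in the knockout libraries. The groups were 5.85 FPKM apart at their nearest libraries. These values stand for 968, 975 and 1066 reads in wild type and 1777, 1644 and 1648 in knockout. The means were 10.03 ± 0.483 and 16.8 ± 0.585 FPKM, a ratio of 1.68, with a log2 fold change of 0.69 ± 0.048 (SE; 95% interval 0.58 to 0.80; adjusted p = 5.88e-06 by limma). Of all tested genes, 11.1% had a larger log2 fold change. Pink1 passed under each of the 17 alternatives, with values of 0.56 to 0.75.

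Park7 encodes DJ-1, a redox-sensitive protein linked to mitochondrial quality control and not itself an autophagy receptor. It was at 96.6, 100.6 and 98.3 FPKM in wild type and at 104.6, 113 and 108.1 FPKM in knockout libraries, so that the nearest libraries were 4.08 FPKM apart. The log2 fold change was 0.14 ± 0.037 (adjusted p = 0.0107 by limma). It was 0.038 by median of ratios and 0.033 by quantile normalization, and passed under neither.

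Among the membrane receptors, Bnip3l, which encodes NIX, the receptor known for clearing mitochondria from maturing red cells, fell. It was at 25.1, 23.9 and 23.7 FPKM in wild type and at 20.3, 18.8 and 19 FPKM in knockout libraries. All knockout libraries were below all wild type libraries, by 3.43 FPKM at the nearest. The means were 24.2 ± 0.746 and 19.4 ± 0.794 FPKM, 20.1% lower, with a log2 fold change of -0.31 ± 0.043 (adjusted p = 0.000343 by limma). It was -0.41 by median of ratios and -0.44 by quantile normalization. A related copy in the table, Bnip3l-ps, named after its values were seen, was at 5.66, 5.84 and 6.16 FPKM in wild type and 5.17, 4.88 and 3.71 in knockout. The copy had a log2 fold change of -0.31 (adjusted p = 0.0233 by limma), a call lost without wild type replicate 2 or 3 and with no filter. How reads were split between the gene and this copy is not given in the sources used here. The level and the change of Bnip3l are uncertain to that extent.

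Fkbp8, an immunophilin of the outer mitochondrial membrane that recruits LC3, was at 44.7, 44.9 and 43.6 FPKM in wild type and at 49.7, 53.3 and 51.9 FPKM in knockout libraries. The groups did not overlap, with 4.83 FPKM between the nearest libraries. Its log2 fold change was 0.21 ± 0.036 (adjusted p = 0.00105 by limma), and it kept its call at 0.11 by median of ratios and 0.09 by quantile normalization (adjusted p = 0.0472). A non-coding gene, Gm51534, overlaps Fkbp8 in RefSeq and was listed at 0.116 FPKM or less in every library.

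Phb2, prohibitin 2, is an inner membrane scaffold that becomes an LC3 receptor once the outer membrane is ruptured. It was at 96.3, 100 and 96.4 FPKM in wild type and at 103.3, 112 and 109.5 FPKM in knockout libraries, with 3.25 FPKM between the nearest. The log2 fold change was 0.15 ± 0.039 (adjusted p = 0.0097 by limma). It was 0.047 and 0.041 under the other scalings and did not pass there. Its partner prohibitin 1 (listed as Phb) averaged 50.5 ± 2.84 FPKM in wild type and 59 ± 1.41 FPKM in knockout libraries (0.22 ± 0.045, adjusted p = 0.00291 by limma), which was 0.12 by median of ratios and did not pass under quantile normalization (0.092).

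Fundc1, an outer membrane receptor tied to hypoxia-induced mitophagy, was at 8.38, 8.07 and 7.72 FPKM in wild type and at 8.44, 8.33 and 8.38 FPKM in knockout libraries. The lowest knockout library was below the highest wild type library. The log2 fold change was 0.052 with a 95% interval of -0.052 to 0.16 (adjusted p = 0.33 by limma), and its sign turned under both other scalings.

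Of the ubiquitin-binding adaptors, Sqstm1, which encodes p62 and is a known NRF2 target, was at 77.5, 73.5 and 74.7 FPKM in wild type and at 82.4, 82.1 and 82.9 FPKM in knockout libraries. The nearest libraries were 4.61 FPKM apart. The log2 fold change was 0.13 ± 0.032 (adjusted p = 0.00665 by limma). It was 0.031 by median of ratios and 0.0029 by quantile normalization, neither of which passed. At 17212 to 19571 reads per library it was the most deeply read of the 9, and its wild type spread (2.72% of the mean) was above the counting error of about 0.754%, while its knockout spread (0.52%) was below the counting error there (0.718%).

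Optn, the adaptor optineurin, was the lowest of the 9 at 5.79, 5.39 and 5.51 FPKM in wild type and 5.98, 5.49 and 5.53 FPKM in knockout libraries. The groups overlapped. The log2 fold change was 0.021 with a 95% interval of -0.10 to 0.14 (adjusted p = 0.737 by limma), and without knockout replicate 1, the highest library, it was -0.013. Tax1bp1, an adaptor of ubiquitinated cargo, was at 29.8, 32.9 and 30.6 FPKM in wild type and 28.1, 31.1 and 30.8 FPKM in knockout libraries. These groups overlapped as well. Its log2 fold change was -0.051 with a 95% interval of -0.18 to 0.072 (adjusted p = 0.419 by limma), but it passed as lower by median of ratios (-0.15, adjusted p = 0.0305) and quantile normalization (-0.19, adjusted p = 0.0103).

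**Figure D2:**
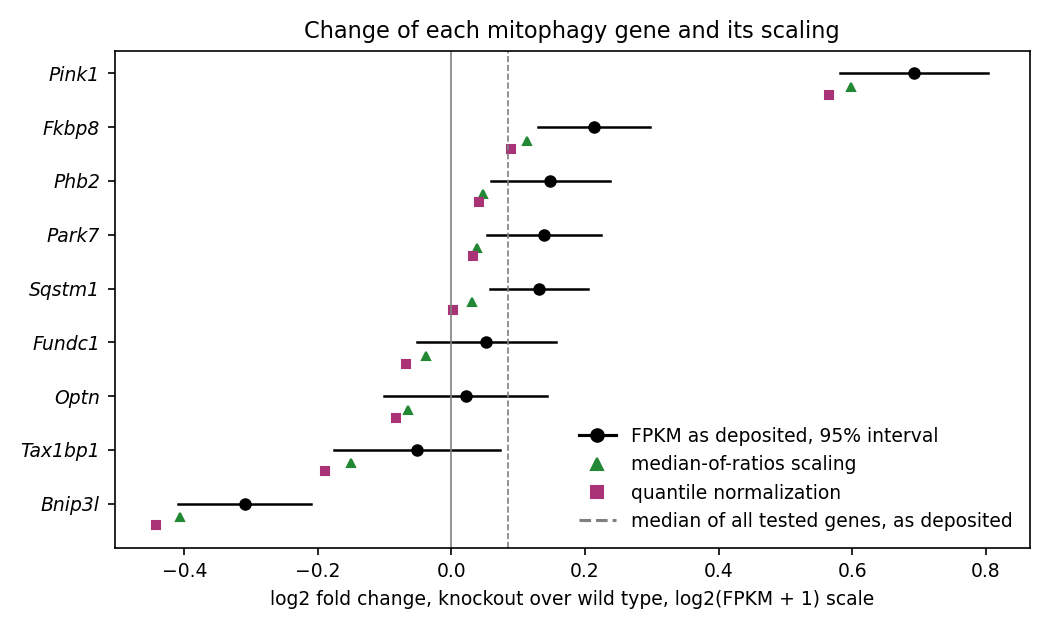
Log2 fold change (knockout over wild type) of each gene from log2(FPKM + 1) values: circles with 95% intervals from limma on FPKM as deposited, triangles after median-of-ratios scaling and squares after quantile normalization. The dashed line is the median of all tested genes as deposited (0.085), which was -0.0019 by median of ratios and -0.026 by quantile normalization. Pink1 and Fkbp8 lie to the right of the line under all 3. Bnip3l, Tax1bp1, Fundc1 and Optn lie to its left under all 3. Phb2, Park7 and Sqstm1 lie close to 0 after rescaling.

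A ratio within a library does not depend on scaling between libraries, apart from the pseudocount. The reference was the mean log2 level of 15 genes of mitochondrial import, folding, channels, cristae, citrate synthase, respiration and DNA packaging (mitochondrial content genes). That mean was 5.99, 6.03 and 6.01 in wild type and 6.01, 6.07 and 6.02 in knockout libraries, which overlap. Relative to it, Pink1 was at -2.56, -2.61 and -2.47 in wild type and -1.80, -1.95 and -1.89 in knockout, a difference of 0.67. Bnip3l was at -1.28, -1.39 and -1.38 and at -1.60, -1.77 and -1.69, a difference of -0.34. The groups were also apart for Fkbp8 (0.19), Phb2 (0.12) and Park7 (0.11), all higher in knockout. They overlapped for Sqstm1 (0.10), Fundc1 (0.026), Optn (-0.0051) and Tax1bp1 (-0.078). These differences still depend on the reference chosen. The mean of the 15 genes was 0.026 higher in knockout, less than the median of 0.085 over all tested genes. Phb2 and Park7 did not pass by median of ratios or quantile normalization. In FPKM as deposited, 73.1% of all tested genes did not overlap. The share of all tested genes on this relative scale was not computed. With 3 libraries against 3, the exact two-sided permutation test cannot go below p = 0.1, the value reached by the 5 genes whose groups were apart, or 0.18 adjusted over the 9 genes, so none can pass.

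**Figure D3:**
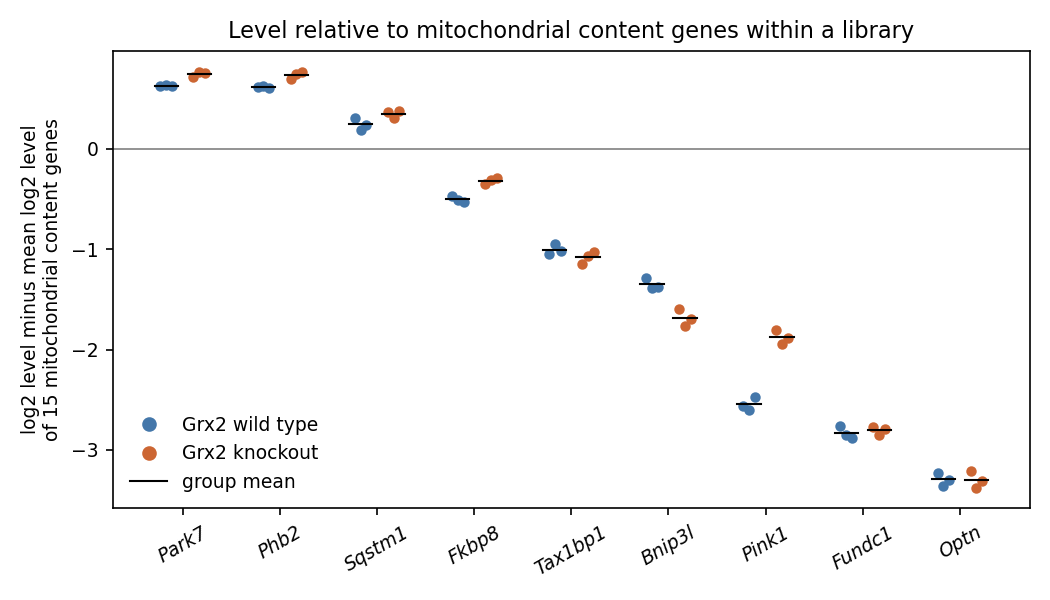
Log2(FPKM + 1) of each gene minus the mean log2(FPKM + 1) of 15 mitochondrial content genes in the same library; points are libraries and bars are group means. Pink1 shows the widest separation, between -2.47 in the highest wild type and -1.95 in the lowest knockout library, and Sqstm1, Tax1bp1, Fundc1 and Optn overlap.

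The rest of the mitophagy machinery was read from 4 lists with 40 genes, of which 36 were tested: 19 rose, 7 fell and 10 did not pass, with a median log2 fold change of 0.15 against 0.085 for all tested genes. These are 72.2% called, near the 67.4% of all. By median of ratios 14 rose and 9 fell, and by quantile normalization 13 and 9. The lists and the 9 genes were chosen with earlier results of these data known.

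Among 14 tested regulators of the ubiquitin arm, 10 rose, 2 fell and 2 did not pass (median 0.23). By median of ratios or quantile normalization 7 rose and 2 fell. Tbk1, the kinase that phosphorylates optineurin and p62, went from 10.7 ± 0.711 to 14.4 ± 0.221 FPKM (0.40 ± 0.052). Parl, the protease that cleaves imported PINK1, rose by 0.27 and Vcp, the ATPase that extracts ubiquitinated outer membrane proteins, by 0.24. Both passed under the other scalings with smaller values, Parl at 0.17 by median of ratios and 0.14 by quantile normalization, and Vcp at 0.13 and 0.18. Marchf5, a mitochondrial ubiquitin ligase, was at 21.9, 22.2 and 21.9 FPKM in wild type and 17.7, 17.6 and 17.1 in knockout libraries and fell (-0.32 ± 0.034).

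Of 12 tested further receptors and adaptors, 6 rose, 2 fell and 4 did not pass (median 0.12); 4 rose and 2 fell by median of ratios, and 3 and 2 by quantile normalization. Bnip3, the paralog of Bnip3l and likewise a HIF target, was at 146, 116 and 134 FPKM in wild type and 40.3, 41.4 and 41.1 in knockout libraries. Its log2 fold change of -1.66 ± 0.074 (adjusted p = 5.2e-07 by limma) was a larger fall than that of Bnip3l, whose 95% interval was -0.41 to -0.21; the difference between them was not tested. Fundc2, the paralog of Fundc1, was at 15.9, 16.4 and 15.8 FPKM in wild type and 21.3, 21.6 and 22.4 in knockout and rose (0.42 ± 0.038). Wdfy3, which encodes the scaffold ALFY, rose by 0.37, and Pptc7, a mitochondrial phosphatase that limits NIX and BNIP3 protein, by 0.34 (0.22 by quantile normalization).

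The ATG8 genes, whose products the receptors and adaptors bind, split: 3 of 5 rose, 1 fell and 1 did not pass (median 0.34). Map1lc3a was at 50.4, 50.1 and 52.3 FPKM in wild type and 66.9, 74.1 and 73.4 in knockout libraries (0.48 ± 0.045, adjusted p = 3.66e-05 by limma). Gabarapl1 (0.37, and 0.24 by quantile normalization) and Gabarapl2 (0.34, and 0.21) rose as well. Map1lc3b was lower (-0.097, adjusted p = 0.0445 by limma), a call lost without wild type replicate 1 (-0.085) or 3 (-0.094), without knockout replicate 2 (-0.071) or 3 (-0.10), and with no filter. It passed as lower by median of ratios (-0.20) and quantile normalization (-0.22), over all 6 libraries.

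Of 5 genes of the ULK complex, the kinase complex that starts autophagosome formation, 0 rose, 2 fell and 3 did not pass (median -0.095), and 4 fell under either other scaling. Rb1cc1, which encodes the scaffold FIP200, was at 12.3, 13.8 and 13.2 FPKM in wild type and 5.5, 7.95 and 7.22 in knockout libraries. Its groups were far apart (-0.85 ± 0.11, adjusted p = 0.000239 by limma), and knockout replicate 1 was the lowest. Ulk1, the kinase itself, fell by 0.26 on the log2 scale.

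Of the 15 mitochondrial content genes, 3 rose, 1 fell and 11 did not pass (median 0.023), and under median of ratios 1 rose and 5 fell, under quantile normalization 1 and 6. Vdac1, an outer membrane channel, rose (0.27 ± 0.032; 0.17 by median of ratios), and Tomm70a, an import receptor, fell (-0.28 ± 0.044). Tomm22, the central import receptor, had 0.17, and Immt, the cristae organizer mitofilin, 0.11; neither passed under the other scalings. The call of Immt was also lost without wild type replicate 3 (adjusted p = 0.0893 by limma), without knockout replicate 2 (0.0586) and without both wild type replicate 2 and knockout replicate 1 (0.0525).

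Bnip3 and Bnip3l are known HIF targets and Sqstm1 is a known NRF2 target, and lists of other targets of these factors had medians farther from that of all tested genes. Of 12 HIF targets, 11 fell and 1 rose (median -0.43), also by median of ratios and quantile normalization. Vegfa, the angiogenic factor, went from 51.4 ± 2.11 to 17.7 ± 1.48 FPKM, Ero1a, an oxidase of the endoplasmic reticulum, from 48.8 ± 2.6 to 23.4 ± 0.792, and P4ha1, a collagen prolyl hydroxylase, from 144 ± 3.86 to 86.7 ± 1.75. The one that rose was Car9, carbonic anhydrase 9, from 1.59 ± 0.344 to 13.5 ± 0.99 FPKM. Of 8 NRF2 targets, 7 rose and 1 fell (median 1.39), again under all 3 scalings. Gclm, a subunit of the glutathione synthesis enzyme, rose by 1.75, Srxn1, sulfiredoxin, by 1.46, Hmox1, heme oxygenase 1, by 1.49 and Nqo1, a quinone reductase, by 3.50. Sqstm1 was at 0.13. Whether either factor acts on Bnip3, Bnip3l or Sqstm1 in these cells was not tested. Macrophage markers (7 of 8 higher) and neutrophil markers (7 of 7 tested lower) moved between the same libraries, and their part in these values was not tested.

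**Figure D4:**
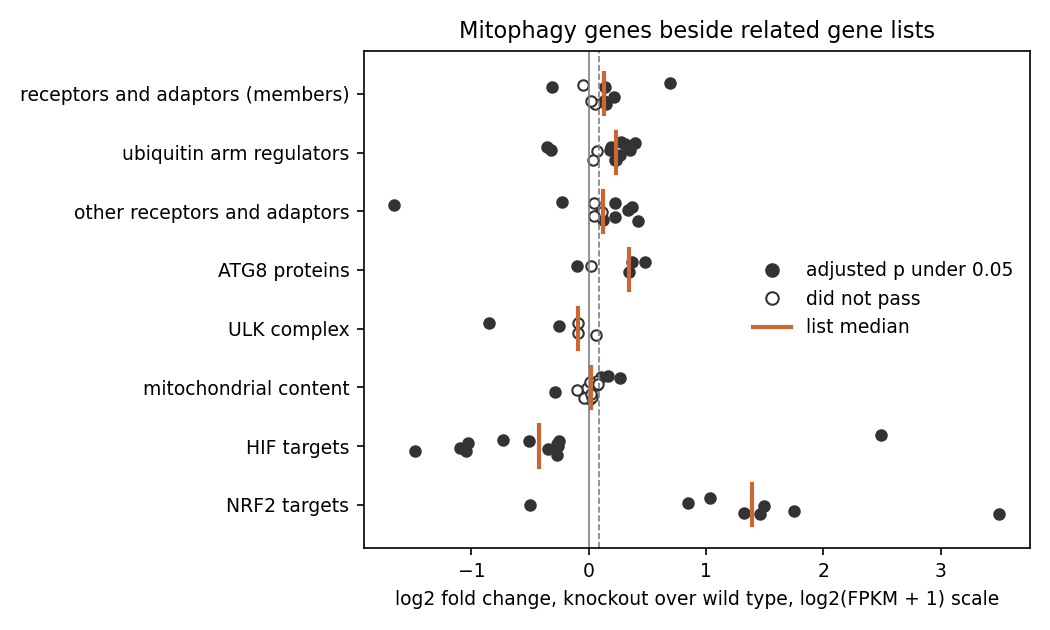
Log2 fold change of each tested gene, knockout over wild type, for the 9 receptor and adaptor genes and 7 related lists; filled points passed at adjusted p under 0.05 (limma), open points did not, and orange bars are list medians. The medians of the 9 genes (0.13), the further receptors (0.12) and the mitochondrial content genes (0.023) lie near the dashed line at the all-gene median of 0.085. Those of the HIF targets (-0.43) and NRF2 targets (1.39) lie farthest from it. The ATG8 genes (0.34), ubiquitin arm regulators (0.23) and ULK complex (-0.095) also lie off it, but less far.

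The genes with the most similar profiles were found by Euclidean distance of log2(FPKM + 1) values centred on their mean over the 6 libraries, among 10748 tested genes with approved-style symbols. Nearest to Pink1 were Lrrc61 (distance 0.0735), Calhm2 (0.0824), Ptpra (0.0862), Stat5a (0.0916) and Ctso (0.0916), with log2 fold changes of 0.66 to 0.69. Nearest to Bnip3l were Mpp2 (0.0326), Lars (0.0334), Sec16a (0.0409), Unc119b (0.0453) and Zfp598 (0.0483), with log2 fold changes of -0.32 to -0.29. With 2 groups of 3 libraries, such likeness mostly reflects the size of the difference between genotypes.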

How the data were processed

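Messenger RNA was measured in 6 libraries, which the labels assign to a genotype. TRIzol extraction and a VAHTS kit were used, per the labels' protocols. The authors deposited FPKM values, 1 column per library; HTSeq, HISAT2 and R 3.2.0 with GRCm39 are named, per the submitters' processing notes. Neither annotation nor strandedness is given in the sources used here, so overlapping genes cannot be told apart by strand. FPKM values were used without rescaling. Whole reads were worked back for 22980 genes (99.98%, tolerance 1e-06 reads), taking the smallest gene length that gave whole reads, and served for depth and for voom. Genes with a mean of at least 1 FPKM were fitted as log2(FPKM + 1) with limma 3.58.1 (eBayes with trend) in R 4.3.3, two-sided, with Benjamini-Hochberg adjustment over 11083 genes. A fold change on this scale understates that of low genes. The fit was tested on simulated data in which a small part of the genes changed, evenly up and down. That test does not cover a shift shared by most genes. Alternatives changed 1 choice at a time: pseudocount, filter, scaling, replicate block, voom, libraries left out and thresholds. Genes were named by a rule: all 9, Glrx2, Bnip3 and Phb, up to 4 called genes per list with the smallest p and groups apart, and nearest profiles. Of the lists, Calcoco2 and Alas2 were not analysed here, and 1 result that the rule allows is not reported here. Protein sequences were not used here. The members and lists were chosen with earlier results of these data known. Figures were drawn with matplotlib 3.10.9.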

Additional observations from a re-analysis of the deposited data

How the results depend on the processing

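Pink1 rose under all 17 alternatives and Bnip3l and Fkbp8 kept their call under each except the 1.5-fold minimum. The 5 higher and 1 lower of the 9 genes were the same counts with the replicate number as a block (5 and 1), with voom, and without each library (5 to 5 higher and 1 to 1 lower) or without both wild type replicate 2 and knockout replicate 1. With median-of-ratios scaling they were 2 and 2, with quantile normalization 2 and 2, and with a 1.5-fold minimum 1 and 0. That minimum left 1545 higher and 780 lower of all tested genes, and 0 higher and 2 lower of the other mitophagy genes. By list these were 0 and 0 ubiquitin arm regulators, 0 and 1 further receptors, 0 and 0 ATG8 genes and 0 and 1 ULK genes. It left 0 and 0 mitochondrial content genes, 1 HIF target higher and 5 lower, and 7 NRF2 targets higher and 0 lower. The NRF2 target that fell was also lost with a mean FPKM of at least 5 (0 lower), and mitochondrial content genes had 2 lower without knockout replicate 1 or 2 or both libraries named above.

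The sign turned for genes that did not pass. Fundc1 was at -0.038 by median of ratios and -0.068 by quantile normalization, and Optn at -0.065 and -0.084. With libraries left out Optn ran from -0.032 (without both named above; -0.013 without knockout replicate 1) to 0.046, and Tax1bp1 from -0.081 to 0.034 (without both). Immt, which had passed, was at -0.029 by quantile normalization. Both rescalings remove by construction a shift shared by most genes; which scaling is nearer to the cells was not tested.

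Samples with the same replicate number correlated at 0.107, 0.124 and 0.0199 in their deviations from group means. For wild type replicates 1 and 2 this was the highest value with any knockout library. Replicate 3 of wild type correlated more with knockout replicate 1 (0.0598). Values this weak over 6 libraries cannot settle whether the numbers pair the samples. With 3 libraries per group, 95% intervals that reach about 0.1 to either side on the log2 scale limit what can be seen for Fundc1, Optn and Tax1bp1.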
